A study of Homo sapiens with 6 samples.

Results

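Transcripts of 10 genes that fold proteins in the endoplasmic reticulum (ER), or that carry its stress response, were followed through 6 RNA sequencing libraries of HEK293A cells, a derivative of the human embryonic kidney line HEK293. The genes were taken by name from the gene tables, and all 10 were found among the 19922 genes that both deposited tables share. They are HSPA5, HSP90B1, PDIA4, CALR, DNAJB9 and SDF2L1, which encode chaperones and folding enzymes of the ER lumen, HERPUD1, a factor of ER-associated degradation, and the transcription factor genes XBP1, ATF4 and DDIT3. The study set cells transfected for 48 h with siRNAs against UBE2A and UBE2B (labelled 25 uM of each, 50 uM in total; 3 libraries) against cells given vehicle for 48 h (3 libraries). UBE2A and UBE2B encode the human RAD6 enzymes, which pass ubiquitin to substrates such as histone H2B. The control is described as vehicle, without siRNA, and no non-targeting siRNA is named, so a general response to siRNA cannot be told apart from the knockdown. Replicates 1 and 2 of each group stand in a first table, and 1 control and 1 knockdown library, whose columns carry no replicate number, in a second. Nothing in the labels says that the libraries came from separate cultures, so the p-values rest on library-to-library spread that may be purely technical.

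The ER lumen is where secreted and membrane proteins fold. When unfolded protein accumulates there, 3 sensors in the ER membrane, encoded by ERN1, EIF2AK3 and ATF6, start the unfolded protein response. ERN1 (IRE1 alpha) splices XBP1 mRNA so that it encodes an active factor, EIF2AK3 (PERK) phosphorylates eIF2 alpha and thereby favors translation of ATF4, and ATF6 is cut by Golgi proteases to free a transcription factor. The targets of these arms include the chaperone genes, the degradation machinery and, through ATF4, DDIT3, which encodes the pro-apoptotic factor CHOP. Counts per gene show neither the splicing of XBP1 nor the translation of ATF4, so activity of both factors was not measured here.

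The knockdown was partial. UBE2A stood at 99.6, 97.9 and 105 CPM (read counts over library total, scaled with TMM factors) in the controls and 51.9, 57.7 and 49.1 CPM in the knockdowns, with a log2 fold change of -0.93 (standard error 0.07, edgeR adjusted p = 1.64e-12), and UBE2B had -0.30 (0.07, adjusted p = 0.0127). For UBE2B, leaving out control replicate 2 (adjusted p = 0.0757), knockdown replicate 1 (0.103), the unnumbered control (0.183) or the unnumbered knockdown (0.190) ended the call, and with the group as the sole term neither passed (0.0668 for UBE2A, 1.00 for UBE2B). Totals of reads counted in genes ran from 10887217 to 14564624 per library, and mitochondrial genes held 4.65% to 4.91% of them. The tables divided the libraries more strongly than the knockdown did: the first principal component, with 70.0% of the variance, had all libraries of the first table on one side and both of the second on the other. Of the HEK293 markers, NEFL (164 to 213 CPM), VIM (143 to 177) and LIN28B (42.5 to 97.2) were present, PAX2 was low (1.95 to 4.44) and NEFM nearly absent (0.544 to 2.01). Of 10 markers of nephron, blood or fibroblasts, UMOD, SLC34A1 and PTPRC had 0 reads in every library, NPHS1, SLC12A1, AQP2, HBB and DCN had at most 10, and COL1A1 (26.5 to 46.0 CPM) and COL3A1 (47.4 to 54.5) were present.

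The promoters of 6 of the 10 genes carry the element through which ATF6 and XBP1 act on ER chaperone genes. The element, ERSE, reads CCAAT, then 9 bases of any kind, then CCACG; its shorter form, ERSE-II, reads ATTGG, then 1 base of any kind, then CCACG. Both were looked for on both strands in RefSeq promoter windows (GRCh38.p14), which run from 250 bases before to 50 bases after each annotated start; every one of the 10 genes had a window. ERSE was found at HSPA5, HSP90B1, CALR and XBP1, and ERSE-II at SDF2L1 and HERPUD1. Among all 27305 genes with a window, 44 had either element, or 0.161%. The sites are shown because they divide the 10 genes. The element is described for ER chaperone and stress genes, and the 10 were chosen as such genes. Its share among them is therefore no independent result. Each line gives the element in capitals with 10 bases on either side, on the gene's own strand.
HSPA5 ERSE, chr9:125241381-125241419, minus strand: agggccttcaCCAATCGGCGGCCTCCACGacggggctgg
HSP90B1 distal ERSE, chr12:103930206-103930244, plus strand: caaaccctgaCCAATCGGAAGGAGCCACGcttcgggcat
HSP90B1 proximal ERSE, reversed, chr12:103930311-103930349, plus strand: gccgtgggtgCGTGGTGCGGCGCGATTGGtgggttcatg
CALR ERSE, reversed, chr19:12938374-12938412, plus strand: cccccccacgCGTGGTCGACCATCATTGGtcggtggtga
XBP1 ERSE, chr22:28800593-28800631, minus strand: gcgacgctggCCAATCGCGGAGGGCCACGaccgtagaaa
HERPUD1 ERSE-II, chr16:56932015-56932045, plus strand: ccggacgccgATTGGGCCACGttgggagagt
SDF2L1 ERSE-II, reversed, chr22:21642104-21642134, plus strand: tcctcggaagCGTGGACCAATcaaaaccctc
The XBP1 element lay closest to its start, with its last base at position -34, followed by HSPA5 at -48, and the CALR element lay farthest, with its last base at -207. PDIA4, DNAJB9, ATF4 and DDIT3 held neither element in these windows. In these windows none of the 10 held TGACGTGG, the core that spliced XBP1 binds (0.927% of all genes). The same held for TGATGCAAT, a form of the amino acid response element that ATF4 binds (0.293% of all genes). Sites outside the windows, or with other letters, were not looked for. A match of letters is a description and does not show that a factor binds there.

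None of the 10 genes passed the test for a change after knockdown. In the edgeR fit with the table of origin as a term, 0 of 10 were called at an adjusted p under 0.05, where 2.47% of the 13629 genes tested were called (0.638% higher and 1.83% lower). At an unadjusted p under 0.05 the count was also 0 of 10, where 14.1% of all genes tested stood under it. DESeq2 with the same term called 0 of the 8 for which it gave an adjusted p, DNAJB9 and DDIT3 having none. The median log2 fold change of the 10 was 0.07, against 0.0026 over all genes tested. Knockdown and control libraries overlapped for each of the 10 genes, while 7.70% of all genes had groups that did not overlap.

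**Figure D1:**
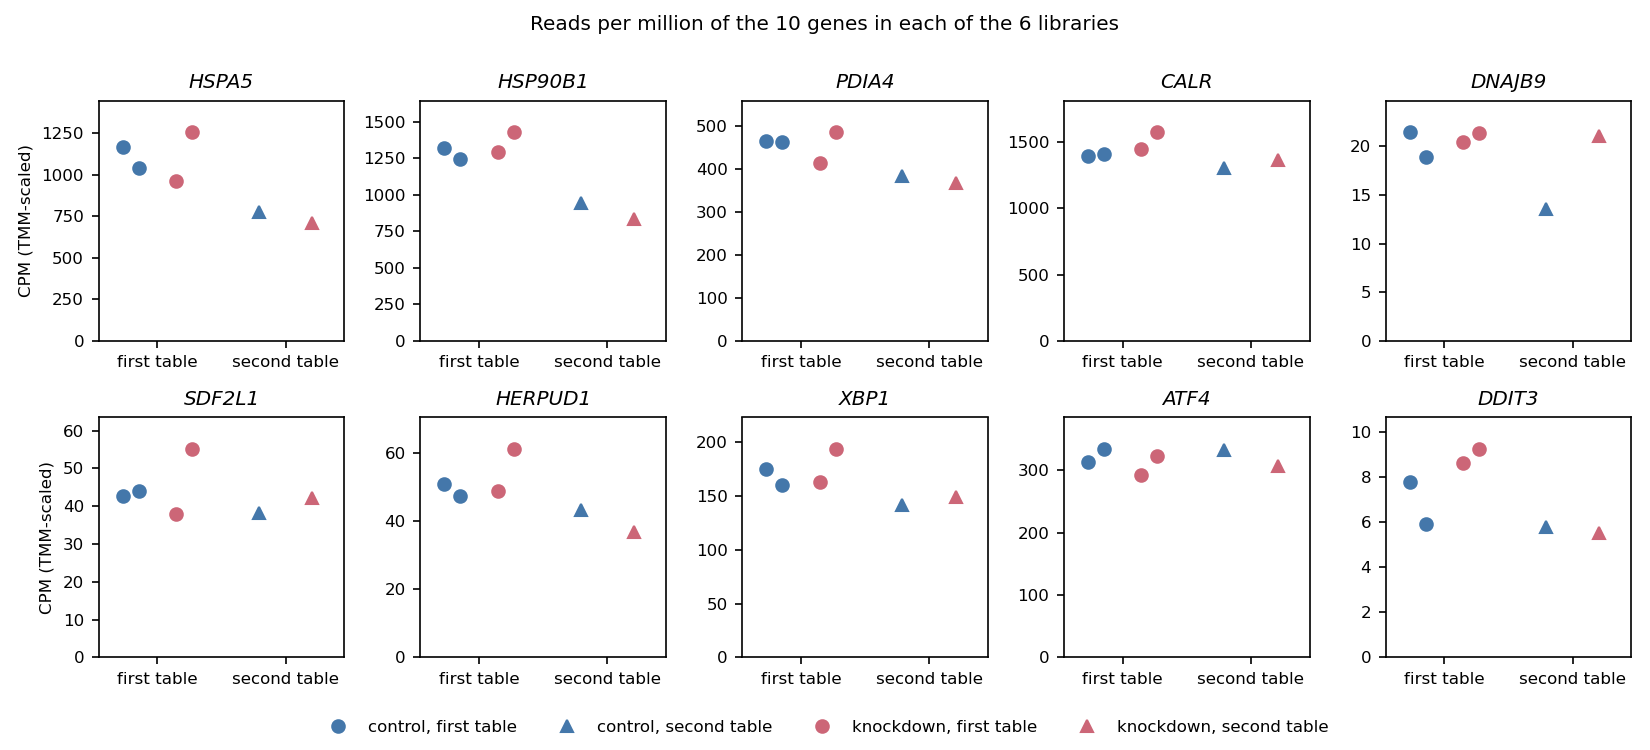
Levels (TMM-scaled CPM, vertical axes from 0) of the 10 genes in each library, with circles for the first table, triangles for the second, blue for control and red for knockdown. Knockdown replicate 2 is the highest library for HSPA5, HSP90B1, PDIA4, CALR, SDF2L1, HERPUD1, XBP1 and DDIT3, and the second table is lower than the first for 7 of the 10 genes.

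HSPA5 encodes BiP, the ER Hsp70 that binds unfolded chains and holds the sensors inactive (ENSG00000044574, chromosome 9, minus strand). Its level was 1166 and 1041 CPM in the first table's controls and 962 and 1257 CPM in its knockdowns, and 774 CPM in the control and 712 CPM in the knockdown of the second table. The knockdowns of the first table lay on either side of its controls, and the second table's knockdown lay under its control. The log2 fold change was -0.04 (standard error 0.06, adjusted p = 0.866), and the 95% interval ran from -10.6% to 6.57%. HSP90B1 encodes GRP94, the ER form of Hsp90 (ENSG00000166598, chromosome 12, plus strand). It had 1323 and 1247 CPM in the first table's controls, 1296 and 1429 CPM in the knockdowns, and 948 (control) and 836 CPM (knockdown) in the second table. Its estimate was -0.0031 (standard error 0.05, adjusted p = 0.987; interval from -7.56% to 7.71%). Within the tables it pointed in opposite directions, with 0.08 in the first and -0.18 in the second.

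CALR encodes calreticulin, the lectin chaperone that retains unfinished glycoproteins (ENSG00000179218, chromosome 19, plus strand). It was at 1394 and 1409 CPM in the first table's controls and 1447 and 1575 CPM in its knockdowns, and at 1308 and 1369 CPM in the control and knockdown of the second. In both tables each knockdown library was above each control library, by 0.11 and 0.07 on the log2 scale. The estimate of 0.09 (standard error 0.05) had an unadjusted p of 0.0654 and an adjusted p of 0.395, with an interval from -0.435% to 14.5%. PDIA4, a disulfide isomerase also known as ERp72 (ENSG00000155660, chromosome 7, minus strand), had 464 and 461 CPM in the first table's controls, 413 and 484 CPM in its knockdowns, and 382 and 366 CPM in the second table's control and knockdown. Its estimate was -0.05 (standard error 0.05, adjusted p = 0.747; interval from -10.5% to 4.25%).

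DNAJB9 and SDF2L1 were far less abundant. DNAJB9 encodes ERdj4, a J-domain partner of BiP (ENSG00000128590, chromosome 7, plus strand). Its level was 21.4 and 18.9 CPM in the first table's controls, 20.4 and 21.4 CPM in its knockdowns, and 13.6 CPM in the control against 21.0 CPM in the knockdown of the second table. The 3 knockdowns and the first table's controls lay close together, and the second table's control, with 153 reads, was the low library. The estimate of 0.22 (standard error 0.12, adjusted p = 0.395) combined within-table differences of 0.06 (first) and 0.63 (second), and its interval ran from -0.953% to 36.9%. Without the control or the knockdown library of the second table it was 0.05. SDF2L1 encodes a partner of the ER J-domain proteins (ENSG00000128228, chromosome 22, plus strand) and had 42.6 and 44.1 CPM in the first table's controls, 38.0 and 55.2 CPM in its knockdowns, and 38.1 and 42.1 CPM in the second table's control and knockdown. The lowest and the highest library of the first table were both knockdowns, and the estimate was 0.11 (standard error 0.09, adjusted p = 0.630; interval from -4.88% to 23.2%).

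HERPUD1 encodes a membrane protein that joins the HRD1 ubiquitin ligase complex of ER-associated degradation (ENSG00000051108, chromosome 16, plus strand). It had 50.8 and 47.4 CPM in the first table's controls, 48.8 and 61.2 CPM in its knockdowns, and 43.1 and 36.7 CPM in the second table's control and knockdown. Its within-table log2 differences were 0.15 (first) and -0.23 (second). The estimate of 0.04 (standard error 0.09, adjusted p = 0.876) had an interval from -8.56% to 16.4%.

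Of the transcription factor genes, ATF4 had the narrowest interval and DDIT3 the widest. ATF4 (ENSG00000128272, chromosome 22, plus strand) was at 313 and 334 CPM in the first table's controls, 293 and 323 CPM in its knockdowns, and 332 and 307 CPM in the second table's control and knockdown. Its estimate was -0.08 (standard error 0.05, adjusted p = 0.505; interval from -12.5% to 1.63%). XBP1 (ENSG00000100219, chromosome 22, minus strand) had 175 and 160 CPM in the first table's controls, 163 and 194 CPM in its knockdowns, and 141 and 149 CPM in the second table's control and knockdown, with an estimate of 0.09 (standard error 0.06, adjusted p = 0.560; interval from -2.38% to 15.4%). DDIT3 (ENSG00000175197, chromosome 12, minus strand), the least abundant of the 10 by CPM, had 7.79 and 5.93 CPM in the first table's controls and 8.63 and 9.26 CPM in its knockdowns. In the second table it had 5.78 CPM in the control and 5.53 CPM in the knockdown. Both knockdowns of the first table were above both of its controls, by 0.40 on the log2 scale, and the second table gave -0.06. DDIT3 rested on 61 to 120 reads per library. Its estimate of 0.26 (standard error 0.18, adjusted p = 0.560) had an interval from -6.96% to 53.4%.

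**Figure D2:**
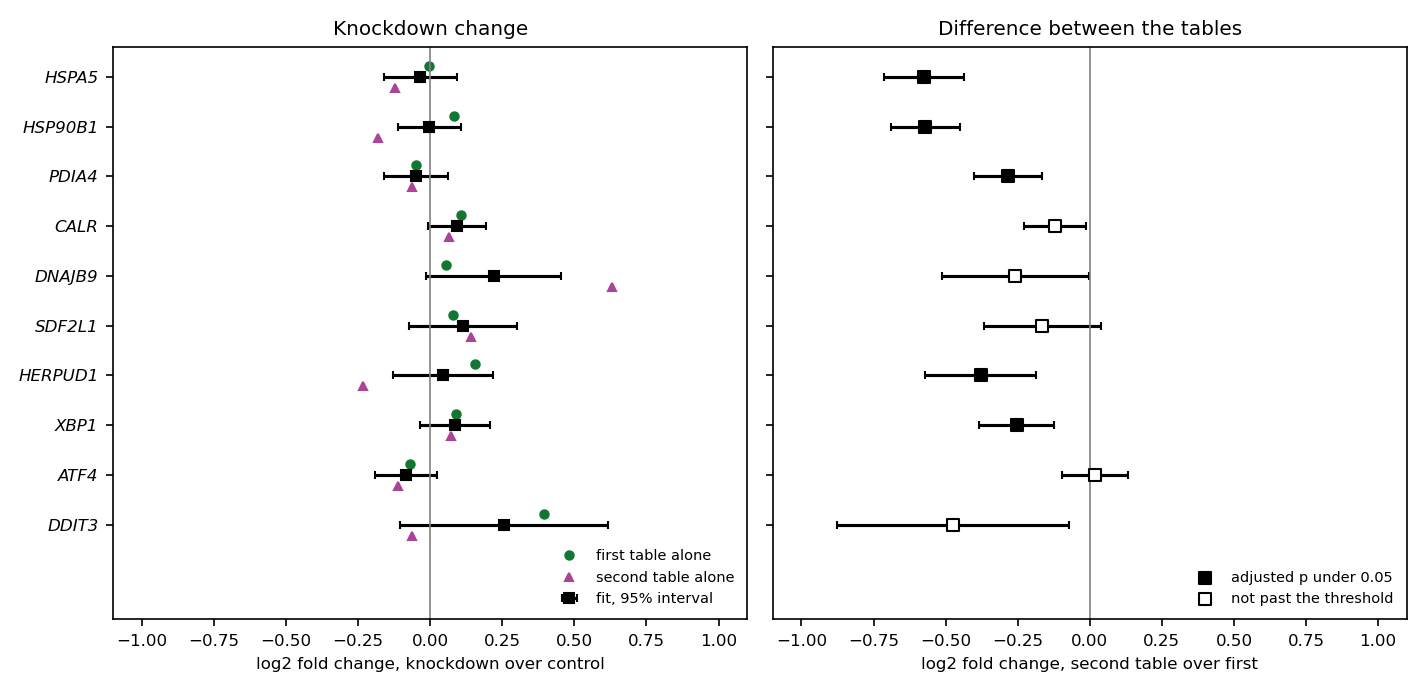
Left, log2 fold change of knockdown over control for each gene, with the edgeR estimate and its 95% interval (squares) and the difference within the first table (circles) and the second (triangles). Right, the second table over the first with 95% intervals, filled where the adjusted p was under 0.05. All 10 knockdown intervals on the left include 0, and the 5 filled squares on the right all lie below 0.

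The 2 knockdown replicates of the first table stood apart in these genes. All 10 genes were higher in knockdown replicate 2 than in replicate 1, by ratios of 1.05 (DNAJB9) to 1.45 (SDF2L1), where 50.9% of all genes tested were higher. Between the first table's controls, 3 of the 10 were higher in replicate 2, where 49.7% of all genes were. With the mean of each table removed, PDIA4 followed HSPA5 with a Pearson r of 0.91 over the 6 libraries, HERPUD1 with 0.83, XBP1 with 0.78, HSP90B1 with 0.76 and SDF2L1 with 0.73. Among genes of at least 20 CPM these values ranked from percentile 92.8 (SDF2L1) to 98.8 (PDIA4). The values for ATF4 (0.54, percentile 82.5), CALR (0.40, percentile 73.4), DDIT3 (0.36) and DNAJB9 (-0.07) were lower. DDIT3 and DNAJB9 had means under 20 CPM and were not ranked. The 6 points share libraries and depth. Removing the table mean leaves the 2 points of the second table as mirror images, so these r values are descriptions. The gap between the knockdown replicates given above enters each r, so r is no separate observation of it. Among 8643 other genes of at least 20 CPM the highest r with HSPA5 belonged to SF3A2, TRMT2A, COPS8, KLC2 and NOSIP (0.98 to 0.99), none of which is in the lists used here.

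As a point estimate, the difference between the tables was larger in size than the gene's own knockdown estimate for 9 of the 10 genes, all but ATF4. Over all genes tested, the median absolute log2 change was 0.21 between the tables and 0.09 after knockdown. The share of all genes with this order was not computed, so the 9 of 10 cannot be read as particular to these genes. Adjusted for the group, HSPA5, HSP90B1, PDIA4, HERPUD1 and XBP1 were lower in the second table, 5 of 10, where 19.7% of the 13629 genes tested were lower and 18.5% higher (38.2% in all). ATF4 was the 1 gene with a positive estimate. Both libraries of the second table lay below all 4 of the first for 7 of the 10 genes, where 24.8% of all genes did. The median log2 difference of the 10 was -0.27, against -0.0049 over all genes tested. In bulk RNA, fewer cells of a kind and less RNA per cell cannot be told apart, and a table here stands at once for its libraries and for the processing behind it.

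HSPA5 had a mean of 1106 ± 131 CPM in the first table (SD, n = 4) and 743 CPM in the second, a log2 difference of -0.58 (standard error 0.07, edgeR adjusted p = 8.99e-09). HSP90B1 had 1324 ± 76.6 CPM (SD, n = 4) and 892 CPM (-0.57, standard error 0.06, adjusted p = 3.66e-10). These are differences of -32.9% and -32.7%. The differences of PDIA4 (-17.9%, log2 difference -0.28, adjusted p = 1.58e-04), HERPUD1 (-23.1%, -0.38, adjusted p = 0.00146) and XBP1 (-16.1%, -0.25, adjusted p = 0.00184) were smaller in size. The HERPUD1 call ended without the second table's knockdown library (adjusted p = 0.326), where its difference was -0.18, and the XBP1 call when either library of that table was left out (0.0555 for the control, 0.0680 for the knockdown). DDIT3 had -0.47 (adjusted p = 0.0567), DNAJB9 -0.26 (0.105), SDF2L1 -0.16 (0.199), CALR -0.12 (0.0686) and ATF4 0.02 (0.842), none of them past the threshold. The DNAJB9 value was -0.56 without the second table's knockdown library, where it passed (adjusted p = 0.0201), and 0.03 without its control library. SDF2L1 had -0.28 without the first table's knockdown replicate 1, where it passed (adjusted p = 0.0160). DDIT3 passed without control replicate 2 (adjusted p = 0.0310), and CALR without control replicate 1 (0.0329) or knockdown replicate 1 (0.0401). With no filter beyond 1 count both CALR (0.0436) and DDIT3 (0.0434) passed.

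Gene models differed between the tables for 4 of the 10 genes, HSPA5 and HSP90B1 among them. HSPA5 was counted over 6530 bases in the first table (hg38, chromosome 9, 125234853 to 125241382), which is the whole interval from its start to its end, introns included. The second table counted it over 3921 bases (125234853 to 125241343). The HSP90B1 model spanned 13092 bases (chromosome 12, 103930107 to 103953931) in the first table and 4695 bases (103930107 to 103953645) in the other, the latter equal to its joined exons in GENCODE 29. CALR had 2802 and 2714 bases (chromosome 19, 12938578 to 12944489 in both). ATF4 (chromosome 22) had 2613 bases from 39519695 in the first and 2911 from 39519672 in the second, ending at 39522683 in both. Models of the other 6 were identical, among them PDIA4 (3298 bases, 149003062 to 149028662), XBP1 (3028 bases, 28794555 to 28800597), HERPUD1 (5062 bases, 56932142 to 56944864) and DDIT3 (1307 bases, 57516588 to 57521737). DNAJB9 (2538 bases, chromosome 7, 108569867 to 108574850) and SDF2L1 (1059 bases, chromosome 22, 21642302 to 21644299) were the remaining 2.

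Where the model was the same, PDIA4, HERPUD1 and XBP1 were still lower in the second table, 3 of 6, where 19.0% of the 11738 tested genes with the same model were lower and 18.7% higher (37.7% in all). Of the 4 with another model, HSPA5 and HSP90B1 were lower, where 24.1% of the 1891 tested genes of that kind were lower and 17.7% higher (41.7% in all). The median log2 difference of the 6 was -0.27. That of all 10 was equal because the genes with another model lay at both ends. The values were lowest for HSPA5 (-0.58) and HSP90B1 (-0.57) and highest for CALR (-0.12) and ATF4 (0.02). The equality thus says nothing about the effect of the model. For HSPA5 and HSP90B1, how many of the extra reads of the first table fell in the added bases was not tested.

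The deposited FPKM values turned the direction for HSPA5 and HSP90B1. FPKM divides the read count by the model's length, so the longer model lowers it. HSPA5 had 178, 157, 148 and 191 FPKM in the first table (control replicates 1 and 2, then knockdown replicates 1 and 2) and 196 (control) and 184 FPKM (knockdown) in the second. For HSP90B1 the values were 101, 93.7, 99.9 and 109 FPKM in the same order, then 201 and 180 FPKM for the second table, with no overlap. On the log2 FPKM scale the second table was thus 0.18 higher for HSPA5 and 0.92 higher for HSP90B1, while its CPM was lower for both. ATF4 turned the other way, with -0.13 on the log2 FPKM scale. Per length, CALR was the highest of the 10 in each table (518 and 495 mean FPKM, first table given first). HSP90B1 (101 FPKM) came in the first table after CALR, HSPA5 (169), PDIA4 (137) and ATF4 (120). In the second table it stood level with HSPA5 (191 and 190 FPKM), ahead of PDIA4 (114) and ATF4 (110). XBP1 (56.9 and 48.1), SDF2L1 (42.3 and 38.0), HERPUD1 (10.2 and 7.91), DNAJB9 (8.05 and 6.86) and DDIT3 (6.03 and 4.34) followed in the same order in both tables.

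**Figure D3:**
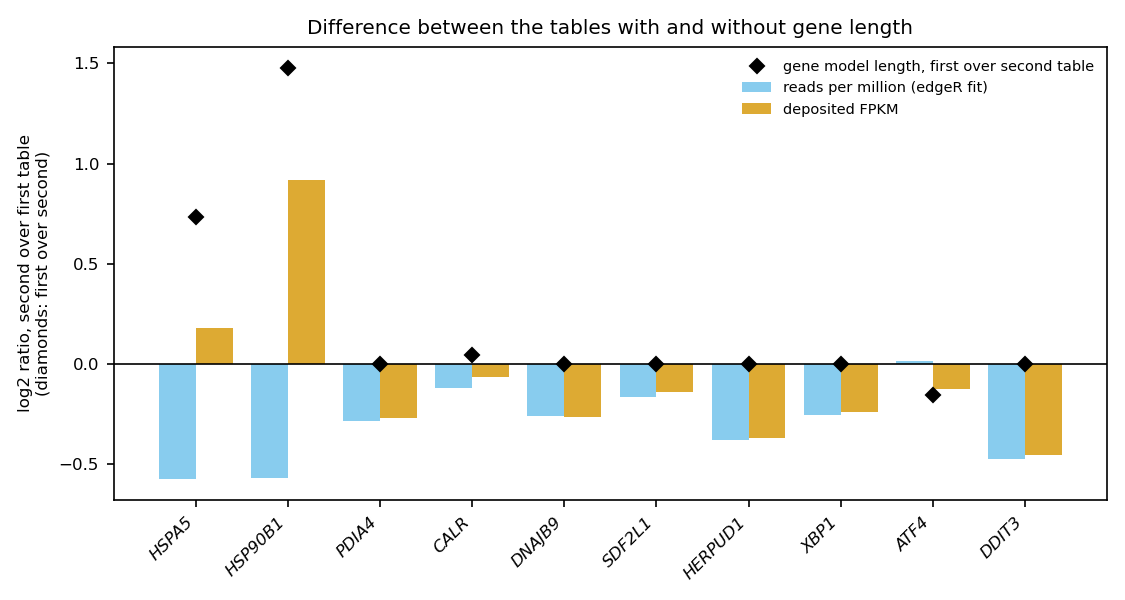
Difference between the tables for each gene as a log2 ratio of the second over the first, from CPM (blue) and from the deposited FPKM (yellow), with the log2 ratio of the gene model lengths, first over second, as diamonds. For HSPA5 and HSP90B1 the blue bars lie at -0.58 and -0.57 and the yellow bars at 0.18 and 0.92.

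The size of the knockdown change was also compared between the tables. HSP90B1 (log2 difference of the changes -0.27, unadjusted p = 0.0245), DNAJB9 (0.58, unadjusted p = 0.0218) and HERPUD1 (-0.39, unadjusted p = 0.0312) had an unadjusted p under 0.05 for the interaction in edgeR, 3 of 10, where 4.61% of all genes did. After adjustment 0 of 10 passed, where 0.00734% of all genes did. The second table has 1 library a group, so this test takes its spread from the first table.

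The wider machinery of the response, and chaperones and proteases of the cytosol and mitochondria outside it, were read through 107 further genes in 8 lists. Over all genes tested, 0.638% were called higher and 1.83% lower after knockdown, with a median log2 fold change of 0.0026. Among 6 tested ER stress sensors and proteases 0 passed after knockdown, with a median log2 fold change of 0.00091. MBTPS2, which encodes the site-2 protease that frees ATF6, had -0.10 (adjusted p = 0.387), and ATF6B, an ATF6 relative, had 0.08 (0.645). Of 20 further ER chaperones and folding enzymes 1 fell and 19 did not pass, with a median of -0.05. The member that fell was DNAJC10, which encodes ERdj5, a disulfide reductase that works with BiP in degradation. DNAJC10 went from 193 and 189 CPM in the first table's controls to 167 and 164 CPM in its knockdowns, and from 137 to 115 CPM in the second table. Each table's knockdowns lay below its controls (log2 fold change -0.22, standard error 0.05, adjusted p = 0.0165). The DNAJC10 call ended when control replicate 2 (adjusted p = 0.0797), knockdown replicate 1 (0.0685), the unnumbered control (0.148) or the unnumbered knockdown (0.158) was left out.

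Of 13 translocation and signal peptide genes 1 fell, where 1.83% of all genes tested did. It was SPCS3, a subunit of the signal peptidase (median of the list -0.02). SPCS3 had 194 and 186 CPM in the first table's controls, 139 and 156 CPM in its knockdowns, and 122 and 101 CPM in the second table's control and knockdown, so knockdown was lower within each table (-0.34, standard error 0.06, adjusted p = 1.85e-04). Its call held with each library left out in turn (adjusted p from 3.51e-04 to 0.0189). Among 16 genes of ER-associated degradation 0 passed (median -0.0057); VCP, the ATPase that extracts substrates, had -0.12 and UBE2J1, the E2 enzyme of this pathway, -0.02. Among 17 tested targets of ATF4 and CHOP 0 passed (median 0.0047), with -0.13 for the serine synthesis gene PSAT1 and 0.07 for DDIT4, an mTORC1 inhibitor. Among 12 eIF2 alpha kinase and translation factor genes 0 passed (median -0.03), with 0.07 for EIF2S3 and -0.09 for EIF2S2, both eIF2 subunits.

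Chaperones of the cytosol had a different count. Of 11 tested cytosolic heat shock genes 4 fell and 7 did not pass, where 1.83% of all genes tested were called lower. All 11 had a negative log2 fold change, and the median was -0.13, against 0.0026 over all genes tested. HSPA1B, an inducible Hsp70 gene, had 421 and 386 CPM in the first table's controls, 227 and 319 CPM in its knockdowns, and 282 and 219 CPM in the second table's control and knockdown (-0.50, standard error 0.07, adjusted p = 9.07e-06). HSPA1A, its near-identical copy, had -0.70 (adjusted p = 0.00481), and reads of this pair are uncertain. HSPH1, an Hsp110 gene, had -0.33 (adjusted p = 8.78e-04) and HSP90AA1, the inducible cytosolic Hsp90 gene, -0.21 (adjusted p = 0.0201). DESeq2 with the same term did not call HSPA1B (adjusted p = 0.187) and gave no adjusted p for HSPA1A, while it called HSPH1, HSP90AA1, DNAJC10 and SPCS3. The call ended without control replicate 2 for HSPA1A (0.153) and HSP90AA1 (0.123), and without knockdown replicate 1 for HSPA1A (0.141), HSP90AA1 (0.262) and HSPH1 (0.0686). That of HSP90AA1 also ended without the unnumbered control (0.288) or the unnumbered knockdown (0.310). Of 10 mitochondrial chaperone and protease genes 0 passed and all 10 were negative (median -0.09), with -0.18 for HSPD1, encoding Hsp60 (adjusted p = 0.0506), and -0.17 for HSPA9, encoding mortalin (0.0571). With replicate blocks in place of the table term both passed, HSPD1 at an adjusted p of 0.0336 and HSPA9 at 0.0399, as they did in DESeq2 with the table term (0.0427 and 0.0341). With the group as the sole term 0 of the listed genes passed. No test compared the cytosolic with the ER list.

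**Figure D4:**
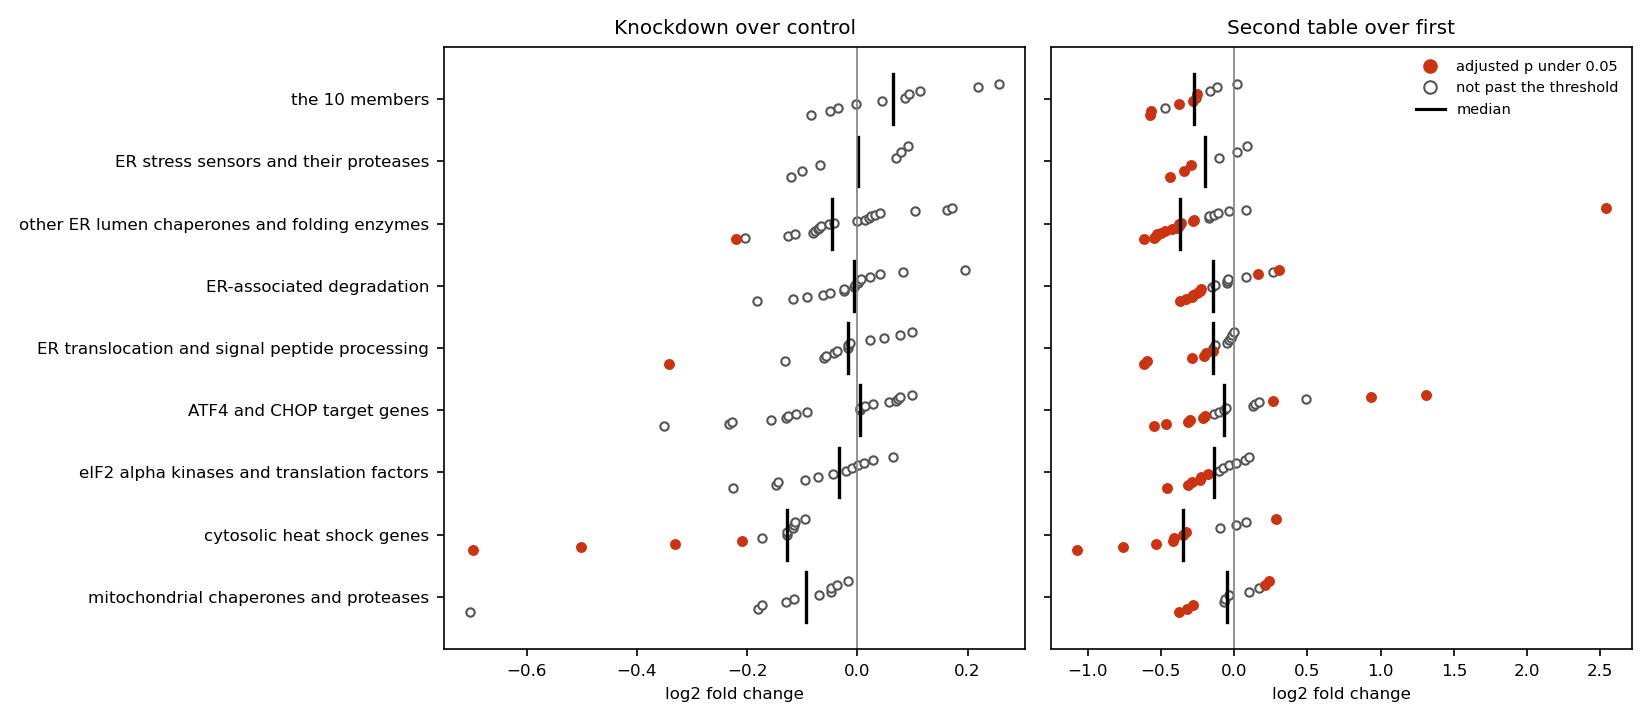
Log2 fold change of each tested gene by list (1 point a gene), for knockdown over control on the left and the second table over the first on the right, with red points where the adjusted p was under 0.05 and a bar at the median. On the left 0 of the 10 named ER genes and 4 of 11 cytosolic heat shock genes are red. On the right 13 of 20 further ER chaperones are red below 0. Over all genes tested, 1.83% were called lower after knockdown and 19.7% lower in the second table.

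Most of the further ER chaperones were also lower in the second table than in the first. Of 20, 13 were lower in the second table and 1 higher, with a median log2 difference of -0.37. Among the 12 of them whose model did not differ, 6 were lower, 1 was higher and the median was -0.23. CANX, the membrane lectin calnexin and a gene with another model in each table, had -0.62 (adjusted p = 3.22e-12), and HYOU1, the ER Hsp110 with the same model in both, had -0.52 (4.12e-07); both were chosen after their values were seen. The higher gene was TXNDC5, with 0.503 to 0.976 CPM in the first table and 4.35 and 4.62 CPM in the second. The other lists had calls in both directions or lower calls alone, where 19.7% of all genes were lower and 18.5% higher. Of 11 cytosolic heat shock genes 7 were lower and 1 higher (median -0.35), of 16 degradation genes 7 and 2 (-0.14), of 17 ATF4 and CHOP targets 6 and 3 (-0.07), and of 10 mitochondrial genes 3 and 2 (-0.05). Lower calls alone were found for 6 of 13 translocation genes (-0.14), 6 of 12 eIF2 genes (-0.14) and 3 of 6 sensors and proteases (-0.20). Outside the 10 genes, 27 tested genes had an ERSE or ERSE-II match in the promoter. Of these, 0 passed after knockdown (median log2 fold change -0.04), and 8 were lower and 2 higher in the second table (median -0.17). The 8 include CANX, HYOU1, PDIA6 and ERO1B, which also count among the 13 lower ER chaperones above, so the counts overlap.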

How the data were processed

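RNA from 6 HEK293A samples was sequenced, and the authors deposited read counts and FPKM per gene in 2 tables. Per the submitters' processing notes, HISAT2, HTSeq and hg38 were used; for versions, annotation and strand setting, no source used here states them. The deposited counts are whole reads per gene, unnormalized. The deposited FPKM equalled count over length over library total within 0.1% for 100% of genes in each library, and was described, not tested. The first table held 19987 genes and the second 19973; 19922 were joined by Ensembl identifier, 2734 of them with another length in each table. The 10 genes and the lists were chosen with earlier results of these data known.

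Changes were fitted in edgeR 4.0.16 (R 4.3.3) to the counts: TMM factors, filterByExpr, quasi-likelihood test, table and group as terms, Benjamini-Hochberg adjustment over 13629 genes, threshold 0.05. The fit was also run on counts simulated from its own means and dispersions, which cannot check whether those dispersions are right. Standard errors are the log2 fold change over the root of the F statistic, and 95% intervals use a multiplier of 2.02. CPM are TMM-scaled. From each list the text names members past the threshold (at most 4), or the 2 with the highest mean FPKM, and the 5 genes of at least 20 CPM most alike HSPA5. Alternatives were DESeq2 1.42.0, other terms, RLE factors, no filter, and each library left out. Reads counted in the deposited genes came to 10887217 to 14564624 per library, and the number sequenced is not given here. Against these totals 3 reads were worth 0.206 to 0.276 CPM, for counting error only. Replicate numbers cover 2 pairs, too few to take as pairing. Motifs are textbook sequences, matched in RefSeq promoters of GRCh38.p14.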

Additional observations from a re-analysis of the deposited data

How the results depend on the processing

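No call was made among the 10 genes after knockdown in any of 13 alternatives, with adjusted p of 0.133 or more in all 134 values; DESeq2 gave values for 8 of the 10 and the fit of genes with the same model for 6. Over all genes the 336 calls were 0 with the group alone, 154 in the first table alone, 204 in DESeq2, and 98 to 420 with 1 library left out. The difference between the tables was called for 5213 genes, and for 2841 to 5002 with 1 library left out. Of the 10 genes 5 were called between the tables, 4 to 7 with 1 library left out, 7 with no filter beyond 1 count, and 3 when only genes with the same model in both tables were fitted (an alternative chosen after seeing the data), which takes out HSPA5 and HSP90B1. The 6 calls in the wider lists were 0 with the group alone, 10 with no filter beyond 1 count, and 2 to 11 with 1 library left out. With a replicate block in place of the table term 363 genes, 0 of the 10 and 9 in the wider lists were called; deviations of control and knockdown libraries of the same number correlated with r = 0.01 over 11332 genes.

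Some estimates changed sign, and the cause was not tested. In the first table alone the knockdown log2 fold change was 0.0064 for HSPA5 and 0.084 for HSP90B1, and with the group alone 0.017 for HSP90B1. With 1 library left out it ran from -0.17 to 0.055 for HSPA5, -0.075 to 0.087 for HSP90B1, -0.13 to 0.0096 for PDIA4, -0.059 to 0.26 for SDF2L1, -0.10 to 0.16 for HERPUD1 and -0.064 to 0.0049 for UBE2J1. The difference between the tables ran from -0.56 to 0.028 for DNAJB9 and from -0.0088 to 0.055 for ATF4. The second table's 2 libraries limit what the interaction could show.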
